A study of Mus musculus with 6 samples.

Results

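AMPA receptors are the glutamate-gated channels that carry most fast excitatory transmission in the brain, and the genes described here encode the 4 pore-forming subunits (Gria1, Gria2, Gria3, Gria4) and 6 auxiliary proteins (Cacng2, Cacng3, Cacng4, Cacng8, Cnih2, Cnih3). They were chosen by gene symbol from the 27884 genes of the deposited table, and all 10 were found there and passed the filter on low counts. The samples were 3 pools of preoptic area (POA) tissue, the part of the hypothalamus that regulates body temperature, from female NuTRAP::Pnoc-Cre mice aged 17 to 18 weeks, with 3 animals in each pool. In these mice cells that express or have expressed Cre under Pnoc, the gene of the nociceptin precursor, carry EGFP on their ribosomes, and both groups share that genotype. Each pool gave 1 library of RNA bound to the tagged ribosomes, purified with an antibody against GFP (IP), and 1 library of total tissue RNA (Input), so that 3 IP libraries were compared with 3 Input libraries. Cre is driven by Pnoc, so that the tag marks whichever cells of the tissue punch use that promoter or used it earlier.

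Subunits of these genes assemble into one channel, and which genes supply them sets how the channel behaves. A receptor that contains the protein of Gria2 in its edited form lets little calcium through, whereas receptors without it are calcium-permeable. The auxiliary proteins of the Cacng genes (transmembrane AMPA receptor regulatory proteins, TARPs) bring receptors to the surface and to the synapse and slow their closing. The cornichon proteins of Cnih2 and Cnih3 promote export from the endoplasmic reticulum and also slow the channel.

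The codon behind the calcium rule is shown because Gria2 was the one subunit gene called different, in the fit that accounts for the pool. An adenosine deaminase changes this codon in the Gria2 transcript, so that it is read as arginine in place of the glutamine that the genome encodes, and the position is called the Q/R site. The 4 stretches are coding sequence of the GENCODE canonical transcripts on GRCm39 (mm39, the build of the deposited table), each 71 bases long, within 1 exon and ending where that exon ends. The capitals mark the Q/R codon or the codon aligned with it.
Gria2: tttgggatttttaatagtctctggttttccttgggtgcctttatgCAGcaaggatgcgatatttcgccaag
Gria1: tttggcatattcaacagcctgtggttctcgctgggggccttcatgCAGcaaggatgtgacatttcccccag
Gria3: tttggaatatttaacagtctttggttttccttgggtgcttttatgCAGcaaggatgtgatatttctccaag
Gria4: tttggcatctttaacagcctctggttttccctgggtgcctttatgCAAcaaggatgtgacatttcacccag
The Gria2 stretch lies on the minus strand at chr3:80614195-80614265, the Gria1 stretch on the plus strand at chr11:57133875-57133945, the Gria3 stretch on the plus strand at chrX:40699097-40699167 and the Gria4 stretch on the minus strand at chr9:4464114-4464184. The genome has a glutamine codon at this place in all 4 genes, and the stretches of Gria1, Gria3 and Gria4 differ from that of Gria2 at 15, 7 and 10 of the 71 bases. Over their whole aligned coding sequences the 4 genes were between 65.6% and 73.0% identical pairwise. Counts per gene do not show whether a transcript was edited, so that the values below are of Gria2 transcripts of either kind.

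Pnoc, whose promoter drives Cre, had 47.7, 43.1 and 41.1 CPM (counts scaled to library size) in IP replicates 1, 2 and 3 against 7.51, 11.0 and 13.2 CPM in Input, and it rose by 2.06 on the log2 scale (adjusted p = 0.000472, edgeR), the direction that the labels imply. Total counts ran from 48204567 to 53056642, and each of the 10 AMPA receptor genes had between 871 and 18235 counts in every library. One library stood apart. Input replicate 1 held 1503.2 CPM of cortical excitatory markers (8 tested genes summed), against 400.5 and 361.4 CPM in Input replicates 2 and 3. It also held 1990.1 CPM of 10 striatal projection neuron markers, against 539.3 and 861.2 CPM. Each library is of a pool, so the p-values of fits without the pool in the model measure the spread between these pools. With the pool in the model they rest on how the difference between IP and Input varied from pool to pool. In tissue libraries fewer cells of a type cannot be told apart from less RNA per cell.

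Cacng2 rose on the tagged ribosomes relative to the tissue, and Gria2 was lower there and Cnih3 higher in every pool, while the other 7 AMPA receptor genes passed neither test below. In edgeR's quasi-likelihood test 1 of the 10 genes was higher in IP at an adjusted p under 0.05 and 0 were lower (3 at an unadjusted p under 0.05 in either direction; 2 higher and 1 lower in DESeq2). Over all 18640 genes tested 12.9% were called higher and 17.1% lower, and in DESeq2 12.8% and 16.7% of 22452 genes. The median log2 fold change was -0.07 for the 10 genes and -0.07 for all genes tested. The IP and Input libraries of the same number were taken as coming from the same pool, which the labels do not state. With the pool as a block in the model, 2 of the 10 genes were higher and 1 lower, against 15.2% and 19.4% of all genes, and the added calls were Cnih3 and Gria2. A share of 1 or 2 in 10 is near these backgrounds, so the counts single out none of the family.

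**Figure D1:**
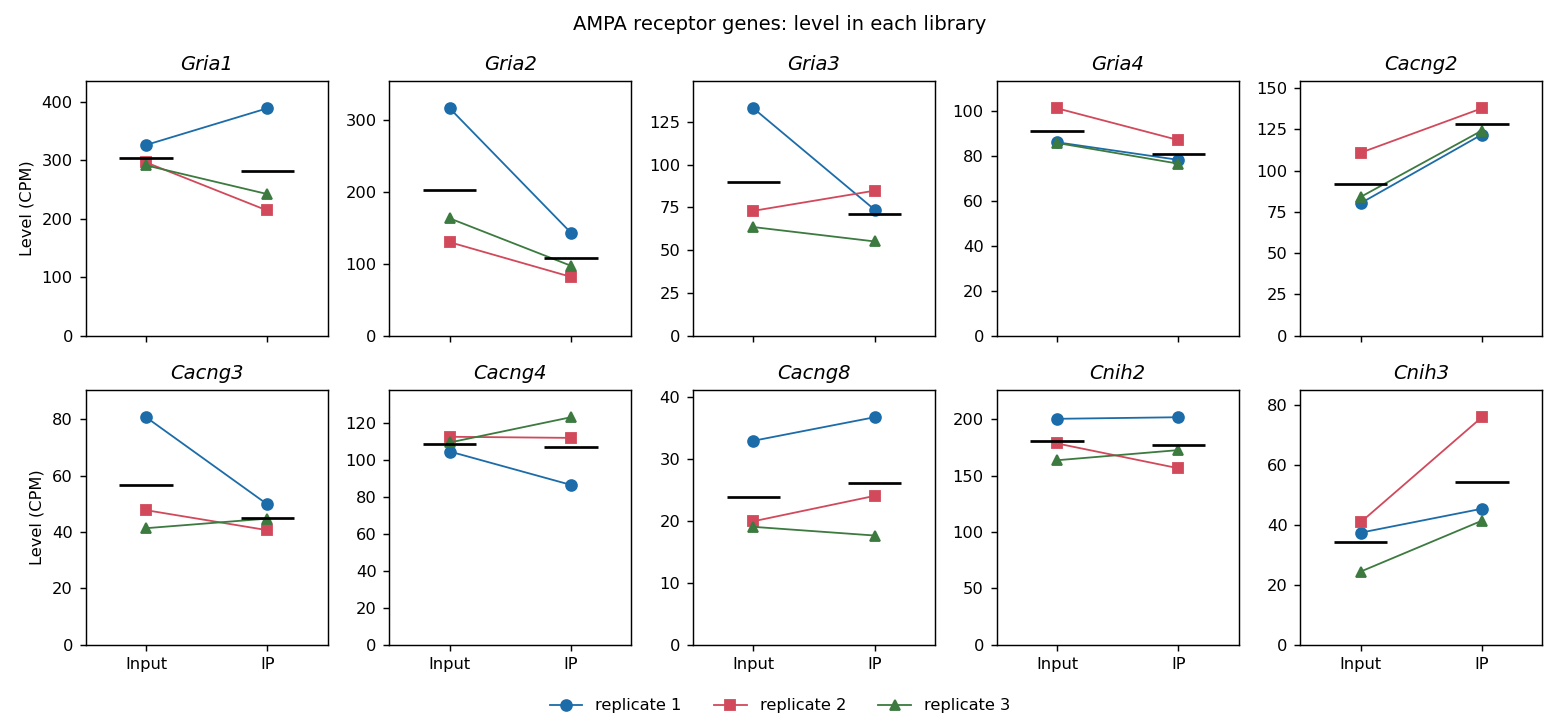
Level in CPM (y axis, linear, from 0) of each of the 10 AMPA receptor genes in the 3 Input and 3 IP libraries. Lines join the libraries of the same pool (replicates 1 to 3) and black bars are group means; the Gria2 line runs down and the Cacng2 and Cnih3 lines run up in all 3 pools.

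Gria2 (ENSMUSG00000033981, chromosome 3, 80588757 to 80710142, minus strand) had 142.9, 81.6 and 97.0 CPM in IP replicates 1, 2 and 3 and 315.7, 129.7 and 162.8 CPM in Input. Each IP library was below the Input library of its own pool, but the groups overlapped, since IP replicate 1 was above Input replicate 2. The means were 107.2 ± 31.9 CPM (SD, n = 3) in IP and 202.7 ± 99.2 CPM (SD, n = 3) in Input. The log2 fold change was -0.92 ± 0.34 (SE), or 1.89-fold lower in IP. Without the pool in the model its adjusted p was 0.0738 (edgeR). With the pool as a block it was -0.85 ± 0.15 (SE) with an adjusted p of 0.00151 (edgeR), and in DESeq2 it was -0.89 with an adjusted p of 0.0147. Within the pools the log2 difference between IP and Input was -1.14, -0.67 and -0.75. Of all genes tested 33.5% were lower in IP in all 3 pools.

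The size of the Gria2 difference changed when the first pool was left out and when gene length was corrected for. Without Input replicate 1 the log2 fold change was -0.44 (adjusted p = 0.195, edgeR). That fit keeps IP replicate 1, the highest IP library for Gria2, without the Input library of its pool. Other values given without Input replicate 1 also keep IP replicate 1 unmatched. Without both libraries of replicate 1 it was -0.71 (adjusted p = 0.0164, edgeR), and with the block in addition it was -0.71 with an adjusted p of 0.000767 (edgeR). The last fit has fewer pools than the full one and leans on the spread of other genes. Its smaller adjusted p is therefore not stronger evidence. Gria2 has the longest summed exon length of the 10 genes in the table, 15548 bases. When each library was corrected for gene length the log2 fold change became -0.59 (adjusted p = 0.115, edgeR), or -0.59 with an adjusted p of 0.00276 when the block was kept as well.

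Gria1 (ENSMUSG00000020524, chromosome 11, 56902213 to 57221070, plus strand) was the subunit gene with the highest level per length. It had 388.8, 214.0 and 242.1 CPM in IP and 326.1, 296.2 and 291.2 CPM in Input. The 3 Input libraries were close together, and the IP libraries lay on both sides of them, with IP replicate 1 the highest of the 6. Its log2 fold change was -0.11 ± 0.21 (SE, adjusted p = 0.729, edgeR). The encoded subunit is the one whose phosphorylation and insertion are best known from long-term potentiation.

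Gria3 (ENSMUSG00000001986, chromosome X, 40489731 to 40767478, plus strand), a subunit gene on the X chromosome, had 73.7, 84.8 and 55.1 CPM in IP and 133.0, 73.0 and 63.5 CPM in Input. Its highest value was that of Input replicate 1, and the other 5 libraries lay between 55.1 and 84.8 CPM. The log2 fold change was -0.34 ± 0.29 (SE, adjusted p = 0.418, edgeR) and turned to 0.07 without Input replicate 1 (adjusted p = 0.831, edgeR).

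Gria4 (ENSMUSG00000025892, chromosome 9, 4417896 to 4796234, minus strand), whose protein forms fast-closing receptors, had the narrowest range of the subunit genes over the 6 libraries. It had 78.1, 86.9 and 76.4 CPM in IP and 85.9, 101.0 and 85.6 CPM in Input. IP was lower in each pool, by 0.14 to 0.22 on the log2 scale, and the groups overlapped. The log2 fold change was -0.17 ± 0.13 (SE, adjusted p = 0.349, edgeR).

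Cacng2, which encodes the TARP known as stargazin, was higher in IP. It had 121.9, 137.8 and 124.3 CPM in IP replicates 1, 2 and 3 and 80.3, 110.9 and 84.1 CPM in Input. All IP libraries lay above all Input libraries. For 47.7% of all genes tested the groups did not overlap, in either direction, and this held for 2 of the 10 AMPA receptor genes, Cacng2 and Cnih3. IP exceeded Input 1.39-fold, or by 0.48 ± 0.15 on the log2 scale (SE), and edgeR's adjusted p was 0.0462, or 0.0187 with the block. The call was close to the threshold. It was kept without Input replicate 2 (adjusted p = 0.0111, edgeR) and lost without any other single library (adjusted p between 0.0862 and 0.155, edgeR), with log2 fold changes between 0.40 and 0.68. It was also lost with upper-quartile factors and with library totals as the scaling (adjusted p = 0.0594 and 0.0951, edgeR). Cacng2 (ENSMUSG00000019146, chromosome 15, 77875948 to 78004228, minus strand) shares 536 exonic bases with A730060N03Rik, a long noncoding gene on the opposite strand. That gene had at most 2.01 CPM in any library. Cacng4, Cacng8 and Cnih2 share 221, 283 and 19 exonic bases with genes of the deposited table on the opposite strand (Gm11650, Gm44257 and Yif1a). Gria4 shares 84 with Gm56143, a microRNA gene of that table on the same strand, whose level was not examined. Genes of the GENCODE annotation that are absent from the deposited table overlap as well. Gria2 shares 635 exonic bases with Gm66511 on the opposite strand and 111 with Gm54598 on the same strand. Cacng4 shares 384 with Gm73373 on the opposite strand, and further such genes overlap Gria3, Gria4 and Cacng8. Whether counting used strand is not given in the sources used here.

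Cacng3 and Cacng8 encode the TARPs best known from cortex and hippocampus, and both varied with the pool. Cacng3 (ENSMUSG00000066189, chromosome 7, 122269715 to 122368616, plus strand) had 49.8, 40.6 and 44.7 CPM in IP and 80.7, 47.7 and 41.3 CPM in Input. Cacng8 (ENSMUSG00000053395, chromosome 7, 3439199 to 3464164, plus strand) had 36.7, 24.0 and 17.6 CPM in IP and 32.9, 19.9 and 19.0 CPM in Input. Input replicate 1 was the highest Input library for both, and IP replicate 1 was the highest IP library for both. The log2 fold changes were -0.33 ± 0.24 (SE, adjusted p = 0.347, edgeR) for Cacng3 and 0.12 ± 0.31 (SE, adjusted p = 0.793, edgeR) for Cacng8. Without Input replicate 1 they were 0.02 and 0.43, with adjusted p of 0.93 and 0.307 (edgeR). Without both libraries of replicate 1 they were -0.06 and 0.10, with adjusted p of 0.819 and 0.775 (edgeR).

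Cacng4 (ENSMUSG00000020723, chromosome 11, 107623183 to 107685383, minus strand) was the TARP gene with the highest level per length in both groups. It had 86.6, 112.1 and 123.3 CPM in IP and 104.7, 112.7 and 109.6 CPM in Input. The Input libraries lay inside the range of the IP libraries. The log2 fold change was -0.02 ± 0.15 (SE, adjusted p = 0.928, edgeR).

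The cornichon genes differed from each other in pattern. Cnih3 (ENSMUSG00000026514, chromosome 1, 181180193 to 181288206, plus strand) had 45.4, 76.0 and 41.4 CPM in IP and 37.4, 40.9 and 24.4 CPM in Input. The groups did not overlap, and the lowest IP library (41.4 CPM) was just above the highest Input library (40.9 CPM). IP exceeded Input 1.59-fold, or by 0.66 ± 0.27 on the log2 scale (SE), and without the block edgeR's adjusted p was 0.102. With the block it was 0.65 ± 0.16 (SE) with an adjusted p of 0.0121 (edgeR), and in DESeq2 0.69 with an adjusted p of 0.0397. Within pools the log2 difference was 0.28, 0.89 and 0.76, and 29.1% of all genes tested were higher in IP in all 3 pools. Without IP replicate 2, the highest library, the log2 fold change was 0.35 (adjusted p = 0.348, edgeR). Without both libraries of replicate 1, in the fit with the block, it was 0.83 (adjusted p = 0.000443, edgeR). That fit has fewer pools than the full one, so its smaller adjusted p is not stronger evidence.

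Cnih2 (ENSMUSG00000024873, chromosome 19, 5142896 to 5148549, minus strand) had 201.9, 156.6 and 172.7 CPM in IP and 200.5, 178.6 and 163.7 CPM in Input. The values interleave, and the log2 fold change was -0.03 ± 0.14 (SE, adjusted p = 0.89, edgeR). In the authors' deposited table, which comes from DESeq2, Gria2, Cacng2 and Cnih3 are the genes of the family with an adjusted p under 0.05, at log2 fold changes of -0.89, 0.51 and 0.69.

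**Figure D2:**
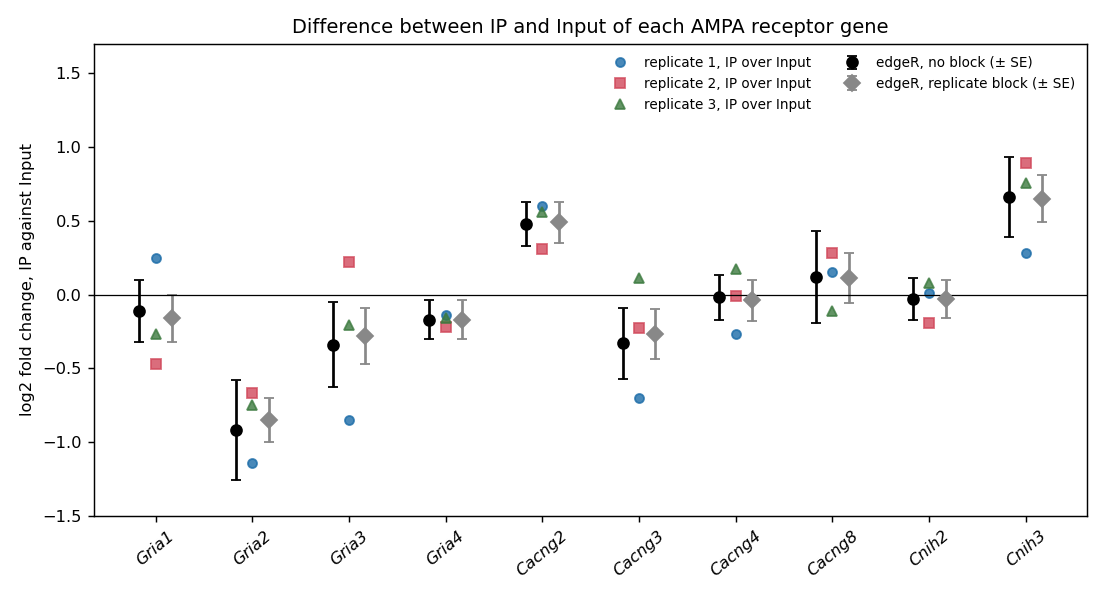
log2 fold change of IP against Input (y axis) for each AMPA receptor gene: black circles and grey diamonds are the edgeR estimates without and with the pool as a block, with bars of 1 SE, and coloured symbols are the log2 ratios within each pool. All 3 pools lie below 0 for Gria2 and Gria4 and above 0 for Cacng2 and Cnih3, and the SE of Gria2 falls from 0.34 to 0.15 with the block.

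Levels of different genes were compared per length, in the FPKM of the deposited table (fragments per kilobase of gene length, scaled to depth). In IP the order was Cnih2 at 129.2 ± 16.0, Gria1 at 46.5 ± 15.2, Cacng4 at 30.0 ± 5.44, Cacng2 at 23.2 ± 1.63, Cnih3 at 19.7 ± 6.92, Cacng3 at 16.2 ± 1.57, Gria4 at 12.8 ± 0.917, Cacng8 at 11.1 ± 4.06, Gria3 at 7.21 ± 1.51 and Gria2 at 6.88 ± 2.00 FPKM (SD, n = 3 each). Cnih2 and Gria1 each stood above the next gene in every IP library, and Cacng3 stood above Gria4. The other neighbours in this order overlapped between libraries. In Input, Gria2 was at 12.7 ± 6.09 FPKM (SD, n = 3) and the seventh in the order, between Gria4 at 14.1 ± 1.44 and Cnih3 at 12.2 ± 3.06 FPKM (SD, n = 3 each), and it overlapped with both. Cnih2, Gria1 and Cacng4 were again the highest 3. These orders use the gene lengths of the deposited table. With the lengths of the canonical transcripts Gria2 stood above Gria4 in Input, as given with the shares below.

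Gria1 was the largest part of the subunit sum in every library, and the Gria2 part was smaller in IP than in Input of the same pool. A share of the summed FPKM of the 4 genes does not depend on how libraries are scaled. Gria2 made up 9.84%, 8.33% and 9.75% of the sum in IP replicates 1, 2 and 3 and 20.0%, 10.3% and 13.3% in Input. The groups did not overlap, and the share was lower in IP in all 3 pools, with means of 9.30% ± 0.849 and 14.6% ± 4.97 (SD, n = 3 each). The exact permutation test, two-sided, gave p = 0.1, the smallest that 3 against 3 libraries allow, and 0.5 when adjusted over the 10 shares and ratios computed. Without Input replicate 1 the difference was -2.51 percentage points, against -5.25 with all libraries. With the lengths of the canonical transcripts in place of the table's the shares were 11.6% in IP and 17.7% in Input. By these lengths the Gria2 mean share in Input was above those of Gria4 (16.0%) and Gria3 (15.3%). The correction of each library for gene length was not applied to the shares.

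Gria1 made up 62.6% ± 6.36 of the subunit sum in IP and 58.4% ± 4.48 in Input, Gria4 18.0% ± 4.38 and 16.8% ± 3.22, and Gria3 10.1% ± 3.06 and 10.2% ± 2.72 (SD, n = 3 each). These 3 shares overlapped between the groups (exact permutation p = 0.4, 0.8 and 0.9). Their sizes depend on the length used. With canonical transcript lengths the means in IP and Input were 55.5% and 50.9% for Gria1, 17.3% and 16.0% for Gria4, and 15.5% and 15.3% for Gria3. Among the TARP genes, Cacng2 made up 27.7%, 30.8% and 28.0% of the sum in IP and 16.8%, 26.0% and 22.2% in Input. The groups did not overlap, and the exact permutation p was again 0.1, the smallest possible (0.5 adjusted). Without Input replicate 1 the difference was 4.73 percentage points, against 7.17 with all libraries. Cacng3 made up 20.1% ± 2.22 in IP and 25.7% ± 6.65 in Input, lower in IP in each pool but with overlapping groups (SD, n = 3 each, exact permutation p = 0.3). Cacng4 was the largest part by the mean, with 37.2% ± 6.34 in IP and 39.7% ± 5.5 in Input (SD, n = 3 each, exact permutation p = 0.6).

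Summed over genes, the subunits were at 73.4 ± 16.7 FPKM in IP and 85.1 ± 11.3 FPKM in Input, and the TARPs at 80.5 ± 1.11 and 76.1 ± 8.11 FPKM (SD, n = 3 each). The ratio of summed TARP to summed subunit FPKM was 0.856, 1.29 and 1.26 in IP and 0.858, 0.957 and 0.876 in Input. IP replicates 2 and 3 stood above all Input libraries, and IP replicate 1 was at the lowest Input value (exact permutation p = 0.4). The ratio of summed cornichon to summed subunit FPKM was 1.76, 2.25 and 2.21 in IP and 1.58, 1.80 and 1.63 in Input, higher in IP in each pool with overlapping groups (exact permutation p = 0.2).

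**Figure D3:**
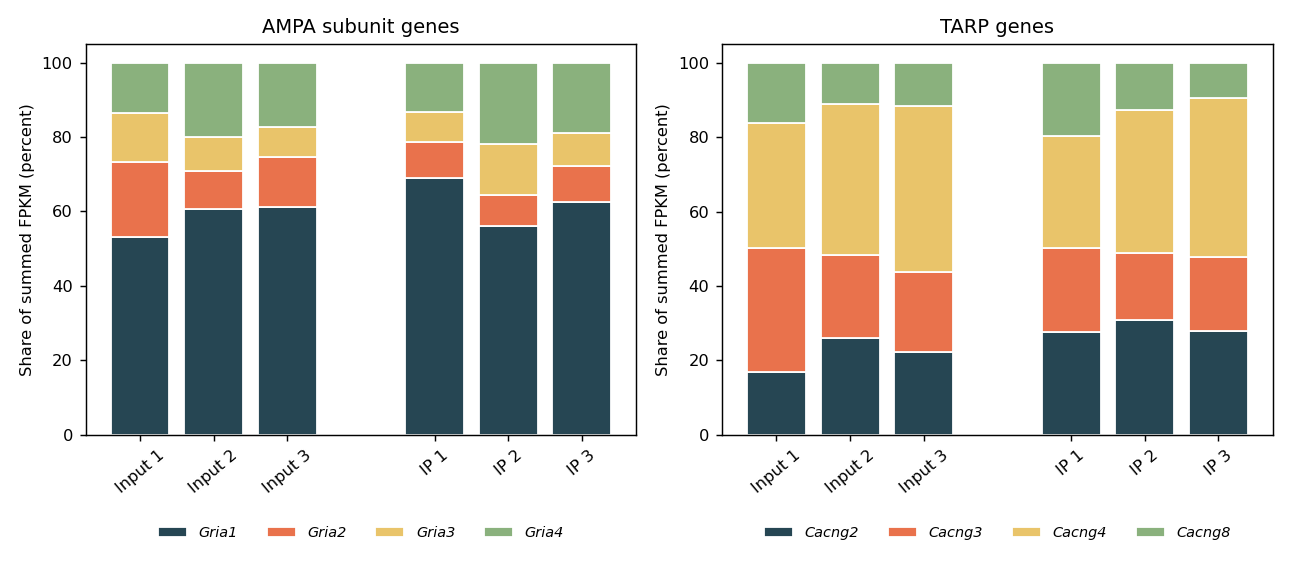
Share of the summed FPKM (y axis, percent) of the 4 subunit genes (left) and of the 4 TARP genes (right) in each library, with the genes stacked in colour. The Gria2 band is between 8.33% and 9.84% in the IP libraries and between 10.3% and 20.0% in the Input libraries.

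Markers of other cell types moved between the same libraries. Cortical excitatory markers summed to between 487.9 and 673.0 CPM in IP and between 361.4 and 1503.2 CPM in Input, and 0 of 8 tested passed in edgeR's test. Striatal markers summed to between 408.7 and 780.0 CPM in IP and between 539.3 and 1990.1 CPM in Input, with 4 of 10 lower and 1 higher. With the block 2 cortical markers were lower and 0 higher, and 7 striatal markers were lower and 1 higher. Of the 10 AMPA receptor genes 6 (Gria1, Gria2, Gria3, Cacng3, Cacng8 and Cnih2) had their highest Input value in Input replicate 1, where both sums were highest. The share of all genes tested with this pattern was not computed, so the count is no result about the family. Without that pool the Gria2 log2 fold change was -0.71, as given above. Oligodendrocyte precursors, which also carry AMPA receptors, were marked by 9 genes that summed to between 135.5 and 175.8 CPM in IP and between 528.5 and 625.0 CPM in Input, with 8 of 9 lower. Slc17a7, the vesicular glutamate transporter gene of cortical cells, had 362.9, 103.4 and 44.0 CPM in Input and 43.3, 190.0 and 63.5 CPM in IP, and Nrgn, a cortical postsynaptic gene, 812.3, 146.8 and 186.9 CPM in Input and 524.9, 170.9 and 285.6 CPM in IP. Among the striatal genes, Ppp1r1b, a phosphatase inhibitor of projection neurons, had 560.5, 111.8 and 233.8 CPM in Input and 143.5, 41.0 and 82.8 CPM in IP, and Penk, an opioid precursor gene, 328.7, 129.1 and 182.1 CPM in Input and 182.3, 130.5 and 140.6 CPM in IP. For all of these but Slc17a7 in IP, replicate 1 was the highest library of its group. The 12 astrocyte markers summed to between 902.7 and 1082.2 CPM in IP and between 3585.4 and 4133.9 CPM in Input, and all 12 were lower. Pan-neuronal genes summed to between 15043.4 and 17227.1 CPM in IP and between 10860.5 and 12567.4 CPM in Input, with 8 of 15 higher and 1 lower and a median log2 fold change of 0.56. Cacng2 at 0.48 lay below that median and Cnih3 at 0.66 above it. GABAergic markers were higher for 5 of 10 genes and lower for 0 in edgeR's test. No marker tested from these 6 lists stood at 0 in a library. The part of these cell types in the AMPA receptor values was not tested.

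Partner genes of AMPA receptors were described from 5 lists. The counts below stand beside the 12.9% of all genes tested that were higher and the 17.1% that were lower, or 15.2% and 19.4% with the block. Of 9 further auxiliary genes tested 0 were higher and 3 lower in edgeR's test, with a median log2 fold change of 0.04. Shisa7, whose protein also binds inhibitory GABA-A receptors, fell from 58.6 to 31.9 mean CPM (log2 fold change -0.88 ± 0.21, SE, adjusted p = 0.0158, edgeR). Cacng7, a type II TARP gene, fell from 201.1 to 121.5 mean CPM (-0.73 ± 0.18, SE, adjusted p = 0.0182, edgeR). The third was Shisa9, at -0.43 ± 0.14 (SE, adjusted p = 0.0446 in edgeR and 0.0613 in DESeq2), named after its values were seen. Prrt2, the tenth gene of this list, had 5 counts in Input replicate 1 and 0 in the other libraries and was not tested. Whether this reflects its level in the tissue or how its reads were counted was not examined.

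Of 7 genes of receptor assembly 1 was higher and 2 were lower, with a median of -0.10. Cnih1, the cornichon gene found in most tissues, rose from 73.2 to 103.9 mean CPM (log2 fold change 0.51 ± 0.11, SE, adjusted p = 0.0126, edgeR). Sacm1l, a lipid phosphatase of the endoplasmic reticulum, had 7.42, 7.31 and 4.35 CPM in IP and 37.5, 37.0 and 35.2 CPM in Input (-2.52 ± 0.22, SE, adjusted p = 0.000223, edgeR). Abhd6, a lipid hydrolase that holds back surface delivery of AMPA receptors, fell by 0.58 ± 0.19 on the log2 scale (SE, adjusted p = 0.0485, edgeR). Abhd6 was no longer called under RLE scaling or when all genes with a count were tested (adjusted p = 0.0548 and 0.0553, edgeR).

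Of 11 trafficking and anchoring genes 5 were higher and 1 was lower, with a median of 0.15. Pick1, whose protein binds the tail of the Gria2 protein and takes part in receptor internalisation, had 26.9, 26.9 and 28.9 CPM in IP and 9.10, 9.70 and 11.7 CPM in Input (log2 fold change 1.44 ± 0.16, SE, adjusted p = 0.000595, edgeR). The groups were far apart and each was narrow. Dlg3, a synaptic scaffold gene, rose by 0.75 ± 0.20 (SE, adjusted p = 0.0228, edgeR), and Dlg1, the scaffold that binds the Gria1 tail, fell by 1.05 ± 0.23 on the log2 scale (SE, adjusted p = 0.0116, edgeR). Grip2, Gripap1 and Dlg4, named after their values were seen, were the other genes called higher, at 0.60, 0.57 and 0.46. With the block 5 genes of this list were higher and 3 lower. The added calls were Akap5 and Arc, named after their values were seen, at -0.63 and -0.77 (adjusted p = 0.0112 and 0.00905, edgeR). Both were high in Input replicate 1, Akap5 at 174.2 CPM against 33.0 and 63.0 and Arc at 128.3 CPM against 32.6 and 36.0. Without the block their adjusted p was 0.393 and 0.224 (edgeR; 0.587 and 0.364 in DESeq2), and without Input replicate 1 their log2 fold changes were 0.15 and -0.02. With the block but without pool 1 they were -0.48 and -0.51 (adjusted p = 0.0425 and 0.0423, edgeR).

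Of 11 extracellular partner genes 1 was higher and 2 were lower, with a median of -0.09. With the block 3 were higher and 2 lower, the added ones being Nptxr and C1ql2, named after their values were seen, at 0.52 and 0.63 (adjusted p = 0.0262 and 0.0415, edgeR). With the block but without pool 1 C1ql2 was at 0.41 and not called (adjusted p = 0.182, edgeR). C1ql3, a secreted synaptic organiser, had 6.27, 5.59 and 6.65 CPM in IP and 24.1, 13.7 and 12.6 CPM in Input (log2 fold change -1.44 ± 0.27, SE, adjusted p = 0.00591, edgeR). Lrrtm2, a postsynaptic adhesion gene, fell by 0.71 ± 0.16 on the log2 scale (SE, adjusted p = 0.0141, edgeR). Olfm1, a secreted AMPA receptor partner, rose by 0.52 ± 0.16 (SE, adjusted p = 0.0451, edgeR) and lost its call with library totals as the scaling (adjusted p = 0.0827, edgeR).

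Of 9 genes of editing and phosphorylation 2 were higher and 0 lower in edgeR's test (0 lower in DESeq2 as well), with a median of 0.10. Ppp3cb, a calcineurin catalytic subunit, rose by 0.49 ± 0.12 (SE, adjusted p = 0.0165, edgeR) and Prkaca, a catalytic subunit of protein kinase A, by 0.47 ± 0.14 (SE, adjusted p = 0.0333, edgeR). Prkaca did not pass with library totals as the scaling (adjusted p = 0.0792, edgeR). Adarb1, the gene of the deaminase that edits the Q/R codon printed above, is named here after its values were seen. It had 424.8, 1320.8 and 875.4 CPM in IP and 248.1, 601.5 and 424.5 CPM in Input. Each IP library was above its own Input library, and the groups overlapped. IP exceeded Input by 1.04 ± 0.42 on the log2 scale (SE), edgeR's adjusted p without the block being 0.0977 (0.139 in DESeq2), and by 0.99 with an adjusted p of 0.000386 (edgeR) with it.

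Of the 17 partner genes called, 14 were no longer called when at least 1 of the libraries was dropped, but all 17 kept their direction. Fewer libraries also gave fewer calls over all genes in most of these fits, between 1417 and 2630 higher and between 2035 and 3080 lower, against 2400 and 3191 with all 6 libraries. Most sizes moved little: Dlg1 lay between -1.20 and -0.76, Shisa7 between -1.03 and -0.65, C1ql3 between -1.57 and -1.09 and Cnih1 between 0.48 and 0.58. Dlg1 and C1ql3 were smallest without Input replicate 1. Cacng7 moved most relative to its size, to -0.48 without Input replicate 2. Pick1, Sacm1l and C1ql3 stayed called when any one library was dropped. Dropping IP replicate 1 took the Lrrtm2 call away (adjusted p = 0.0534, edgeR). Dropping IP replicate 2 or IP replicate 3 did so for Shisa7 and Dlg1, with edgeR's adjusted p from 0.0505 to 0.07. Cnih1 and Ppp3cb were not called without either replicate 3 library (adjusted p from 0.0525 to 0.0634, edgeR). The same held for Cacng7, which was also not called without IP replicate 1, and Dlg3 was not called when replicate 3 of Input, or replicate 1 or 2 of IP, was left out (adjusted p from 0.0516 to 0.0768, edgeR). Olfm1, Prkaca and Gripap1 were called only when Input replicate 1 or Input replicate 2 was the one dropped. The Dlg4 call survived only the removal of Input replicate 1, and that of Abhd6 only the removal of IP replicate 2. Grip2 stayed called only when Input replicate 2 or IP replicate 3 was dropped, and Shisa9 only when Input replicate 1 or IP replicate 3 was.

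**Figure D4:**
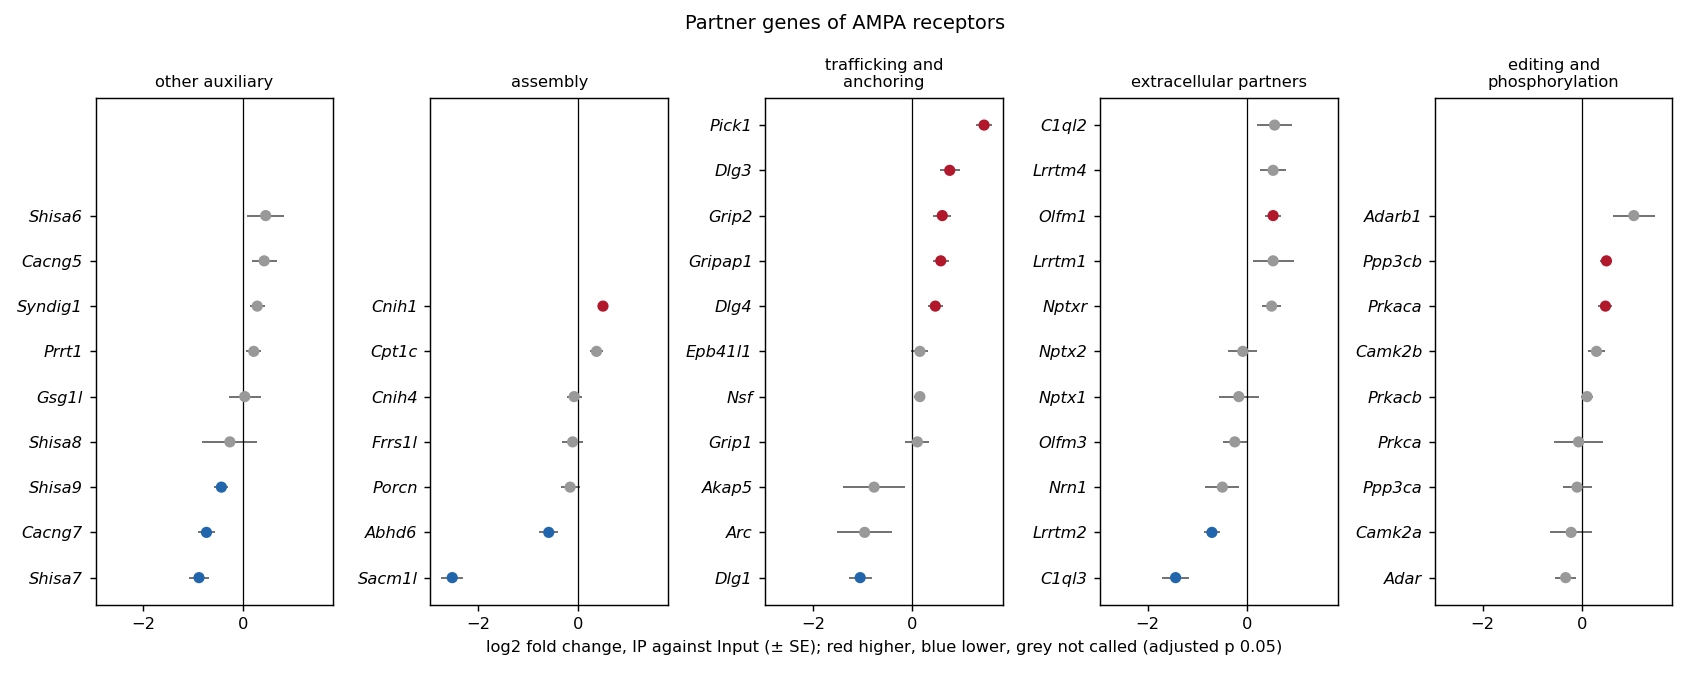
log2 fold change of IP against Input (x axis, bars of 1 SE) of the tested partner genes of AMPA receptors in 5 lists, from the edgeR fit without the block. Red points were higher, blue points lower and grey points not called at an adjusted p of 0.05; Pick1 at 1.44 and Sacm1l at -2.52 lie farthest from 0.

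The genes whose pattern over the 6 libraries was most like that of each subunit gene were found among 10329 genes with a mean of at least 3 log2 CPM, by the root mean square difference of log2 CPM after centring. Gria2 was nearest to Akt2 (0.085) and Frmd6 (0.093), which shared its high value in Input replicate 1. Akt2 had 61.5, 35.1 and 36.6 CPM in IP and 136.7, 49.6 and 69.6 CPM in Input. For Gria1 the nearest were Arhgef6 (0.083) and Adcyap1r1 (0.109), for Gria3 Colgalt1 (0.099) and Flrt1 (0.118), and for Gria4 Cstf1 (0.01) and Ppat (0.034).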

How the data were processed

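The submitters' processing notes name HISAT2, featureCounts, DESeq2 and the build mm39; versions and the use of strand are not given in the sources used here. The deposited table gives raw read counts per gene, and FPKM and a normalized signal that the authors derived from the counts (the signal is the count divided by 1 size factor per library, checked within a tolerance of 1e-06). The log2 fold changes and p-values of the authors' table are printed only where it is named.

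Raw counts were tested with edgeR 4.0.16 in R 4.3.3 (glmQLFit and glmQLFTest, TMM, filterByExpr, two-sided, Benjamini-Hochberg over 18640 genes, threshold 0.05). The SE is the log2 fold change divided by the square root of F. Shares used the deposited FPKM and exact permutation tests. The scripts were tested on simulated data. The members, lists and named-gene rule (the 10 members, Pnoc, and from each partner list up to 2 called genes per direction, those of smallest adjusted p; in marker lists the 2 most abundant; and for each Gria gene the 2 most similar genes) were chosen with earlier results of these data known.

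Pairing by number was inferred from the design text, in which Input was taken from each sample. The labels do not state it. Deviations from group means correlated at 0.23, 0.12 and 0.084 between same-numbered libraries and between -0.19 and 0.076 otherwise. The alternatives tried were other scalings (RLE, upper quartile, library totals), DESeq2 1.42.0, other filters (none, or a minimum of 1 CPM throughout a group), the block, left-out libraries or pools and a spline correction for gene length (4 degrees of freedom, mean change kept). Added after seeing the data were the block without pool 1 and shares by canonical transcript length. Of the table's gene identifiers 27576 were found in GENCODE M39, the 10 members included.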

Additional observations from a re-analysis of the deposited data

How the results depend on the processing

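Of the 10 AMPA receptor genes, 1 was higher and 0 were lower in edgeR without the block. With the replicate block, with length correction plus the block, with the block but without both libraries of replicate 1, and in DESeq2, 2 were higher and 1 was lower. With upper-quartile factors or library totals 0 were higher, and without the low-count filter 1 was lower. Without any one library between 0 and 1 were higher and between 0 and 1 lower, and without both libraries of replicate 1, 2 or 3 the counts were 0, 1 and 0 higher and 1, 0 and 0 lower. Library totals moved the median of all genes by -0.11 and the higher share of calls from 42.9% to 32.0%. Of the partner genes 9 were higher and 8 lower. With library totals 4 were higher, with length correction plus the block or the block without replicate 1 15 were, without one library or pool between 1 and 11 were higher and between 1 and 7 lower, and without both libraries of replicate 2 or 3 2 or 1 were higher and 4 or 1 lower. The cause was not tested.

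Signs turned for 6 genes that were not called and for 5 shares. Cacng4 was at 0.01 with DESeq2 or RLE factors, 0.08 without replicate 1 with or without the block, 0.01 without replicate 2, and between -0.13 and 0.12 without any one library. Gria3 was at 0.04 without both libraries of replicate 1, 0.01 with the block in addition, and between -0.56 and 0.07 without one library or pool. Gria1 was at 0.07 without replicate 2, 0.0 with length correction and between -0.41 and 0.06 without any one library; Cnih2 was at 0.08 without replicate 2 and between -0.13 and 0.05; Cacng3 was between -0.50 and 0.02 and Cacng8 between -0.20 and 0.43. The differences in share (percentage points, IP minus Input) turned for Gria3 to 0.824 with raw counts, 0.154 with canonical lengths and 2.51 without replicate 1, for Gria1 to -1.58 (up to 8.5 without replicate 2) and for Cacng8 to -0.402 without replicate 1. Without one library or pool the difference lay between -2.38 and 2.51 for Gria3, -0.742 and 3.56 for Gria4, -2.0 and 3.14 for Cacng8, and -5.41 and 1.04 for Cacng4. The shares of Gria2 and Cacng2 kept their direction in each of these settings. The length settings of the shares use the same length of a gene in all libraries. They cannot correct a length effect that differs between IP and Input. The spline correction, which is fitted to each library, was not applied to shares. No AMPA receptor gene was under 1 FPKM in all libraries, so that setting was not run.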
